A study of Mus musculus with 8 samples.

Results

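Cxcl9-positive Spp1-negative macrophages were cells of MC38 tumors that carried the transcripts of complement C1q, a mark of tissue macrophages, together with Cxcl9 and without Spp1. Each was a cell with at least 5 unique molecular identifiers (UMIs, counts of captured transcripts) for C1qa, C1qb and C1qc together, at least 2 for Cxcl9 and 0 for Spp1. Members also held at most 1 UMI for the division genes Mki67 and Top2a together, no UMI for the T cell receptor genes Cd3d, Cd3e and Cd3g, and at most 2 for Mtap and Rhox5, which mark the tumor cells here. A total of 289 cells met the rule. They were 289 of the 2890 cells that met every limit apart from those on Cxcl9 and Spp1 (eligible C1q-positive cells, the remaining 2601 being called the other C1q-positive cells), and they came from 9886 cells within the limits on quality.

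The tumors were grown from MC38, a colon carcinoma line of C57BL/6 origin and thus 1 cell line placed under the skin of its own strain. Hosts were wild-type female C57BL/6J mice aged 8 weeks. Tumors were taken 24 h after saline (3 tumors), free R848 (3 tumors) or the medium BPD (2 tumors). R848 is a small agonist of the endosomal receptors TLR7 and TLR8, and the medium BPD is a bottlebrush polymer that carries R848 on a linker of intermediate release rate. Each tumor came from its own mouse and was profiled by Seq-Well, a method that captures single cells in microwells. CD45+ and CD45- cells were loaded at 9:1, so shares of all cells reflect that mixture. No dose or batch was given for these samples.

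CXCL9 and CXCL10 are chemokines that bind CXCR3 on activated T cells and natural killer cells, and macrophages make CXCL9 chiefly on exposure to interferon-gamma. Interferon-gamma raises guanylate-binding proteins, immunity-related GTPases and, by way of CIITA, the MHC class II genes. Spp1 encodes osteopontin, and tumor macrophages rich in it often carry genes of lipid handling, hypoxia and matrix turnover. The balance of Cxcl9 and Spp1 is commonly used to describe the polarity of tumor macrophages.

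The label was checked against macrophage genes that took no part in the rule. Csf1r, the receptor for the growth factor of macrophages, was present in 97.2% of members. Cd68 was present in 93.8%, Fcgr1 in 98.3%, Adgre1, which encodes F4/80, in 84.1% and Apoe in 97.6%. Of the genes that define conventional dendritic cells, Zbtb46 was found in no member and Flt3 in 2. Xcr1 and Clec9a, markers of type 1 conventional dendritic cells, were found in 13 and 11 members, or 4.50% and 3.81%, against 0.654% and 0.384% of other C1q-positive cells. In saline tumor 2 Xcr1 stood at 8.59 CPM (UMIs scaled to a common total per sum) in members against 3.98 CPM and Clec9a at 8.59 against 2.49 CPM. In the 5 tumors used for gene tests, the 11 macrophage markers summed to between 16047 and 24459 CPM in members and to between 18083 and 26559 CPM in the other C1q-positive cells. The 9 dendritic cell markers summed to 0 to 46.3 CPM against 22.4 to 142 CPM, the 7 monocyte markers to 803 to 1948 CPM against 947 to 3294 CPM, the 6 neutrophil markers to 0 to 92.6 CPM against 41.3 to 529 CPM, and the 11 T cell markers to 0 to 11.3 CPM against 5.30 to 21.8 CPM. The 7 natural killer cell markers summed to 34.0 to 108 CPM against 46.2 to 186 CPM, of which Klrk1 was found in 33.2% of members and 13.5% of other C1q-positive cells. Summed levels were 0 to 34.6 CPM against 8.30 to 27.3 CPM for 4 B cell markers, 0 to 27.5 CPM against 0 to 1.28 CPM for 3 plasmacytoid dendritic cell markers, 11.3 to 69.4 CPM against 49.3 to 70.4 CPM for 4 MC38 markers and 23.1 to 133 CPM against 40.3 to 213 CPM for 6 stromal markers. The part of these markers in the results was not tested.

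Members differed widely in how much Cxcl9 they held. The UMIs for Cxcl9 ran from 2 to 83 per cell with a median of 6, and those for C1q from 5 to 431 with a median of 72. Exactly 2 Cxcl9 UMIs were held by 56 members, 3 to 5 by 76, 6 to 10 by 66 and more than 10 by 91, of which 72 came from saline tumor 2. Just outside the rule stood 121 cells with a single Cxcl9 UMI and 55 with a single Spp1 UMI that met all else. The limit on division genes also removed 161 of the 470 cells that met the C1q, Cxcl9 and Spp1 limits, 123 of them in saline tumor 2. Members held a median of 5837 UMIs and the other C1q-positive cells 5062.

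The members were spread very unevenly over tumors, and a single saline tumor held most of them. Saline tumor 2 gave 183 members of 506 eligible cells, or 36.2% (95% exact Clopper-Pearson interval 32.0 to 40.5%). Saline tumor 1 gave 1 of 302, or 0.331% (0.00838 to 1.83%), and saline tumor 3 gave 0 of 296 (Clopper-Pearson upper limit 1.24%; a floor of 3 counts would be 1.01%). The 3 saline tumors thus held both the highest and the lowest shares of the series. Free R848 tumor 1 gave 55 of 271, or 20.3% (15.7 to 25.6%). Free R848 tumor 2 gave 7 of 490, or 1.43% (0.576 to 2.92%), and free R848 tumor 3 gave 13 of 259, or 5.02% (2.70 to 8.43%). Medium BPD tumor 1 gave 11 of 427, or 2.58% (1.29 to 4.56%), and medium BPD tumor 2 gave 19 of 339, or 5.60% (3.41 to 8.61%). These intervals cover counting error only. Of all members, 63.3% came from saline tumor 2 and 19.0% from free R848 tumor 1.

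**Figure D1:**
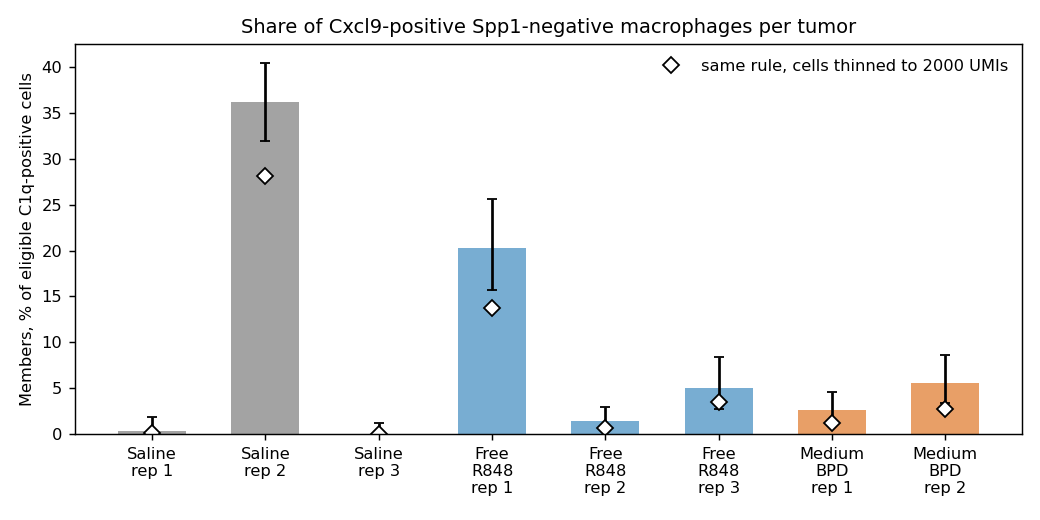
Share of members among eligible C1q-positive cells in each tumor, in percent; bars give the share with its 95% Clopper-Pearson interval and open diamonds the same rule after thinning cells to 2000 UMIs. Saline tumor 2 at 36.2% and free R848 tumor 1 at 20.3% stand above the other 6 tumors, which reach at most 5.60%.

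No treatment difference in the share was larger than the spread between tumors. To compare tumors at 1 depth, each cell was thinned at random to 2000 UMIs, and the share was averaged over 100 draws. The thinned shares were 0.0990%, 28.1% and 0.0173% in the saline tumors, 13.7%, 0.683% and 3.43% after free R848, and 1.20% and 2.68% after the medium BPD. The medium BPD mean of 1.94% ± 1.04 (SD, n = 2) differed by -4.01 percentage points from the free R848 mean of 5.95% ± 6.89 (SD, n = 3), with p = 0.7 in a two-sided exact permutation test. Free R848 differed by -3.46 points from saline, 9.42% ± 16.2 (SD, n = 3), with an exact permutation p = 1.0. The medium BPD differed by -7.48 points from saline, again with an exact permutation p = 1.0. Adjusted over the 3 comparisons each exact permutation p was 1.0, and the smallest p that these group sizes allow is 0.1. Without saline tumor 2 the last 2 differences turned sign, to 5.89 points higher after free R848 (exact permutation p = 0.3) and 1.88 points higher after the medium BPD (exact permutation p = 0.333). For 2 against 2 tumors 0.333 is the smallest p possible, so that the last test could not pass a threshold of 0.05.

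Saline tumor 2 stood apart from the other saline tumors in both Cxcl9 and Spp1, and from the treated tumors in Cxcl9. At least 2 Cxcl9 UMIs were found in 50.2% of its eligible cells, against 2.32% and 1.01% in saline tumors 1 and 3. After free R848 these shares were 25.8%, 2.24% and 7.34%, and after the medium BPD 3.98% and 6.78%. Spp1, by contrast, was undetected in 71.9% of eligible cells of saline tumor 2, within the range of 54.1 to 79.6% of the 5 R848-treated tumors, while in saline tumors 1 and 3 it was undetected in 27.5% and 15.9%. That library is taken as saline from its label, which was not tested. After thinning to 2000 UMIs the acute-phase gene Saa3 was found in 1.55% of its other C1q-positive cells. In medium BPD tumors 1 and 2 this was 70.7% and 74.4%, and in free R848 tumors 1 and 3 it was 9.09% and 8.47%. Over the series 1395 eligible cells lacked Spp1 and held at most 1 Cxcl9 UMI, 1091 held Spp1 with at most 1 Cxcl9 UMI, and 115 held at least 2 Cxcl9 UMIs along with Spp1.

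**Figure D2:**
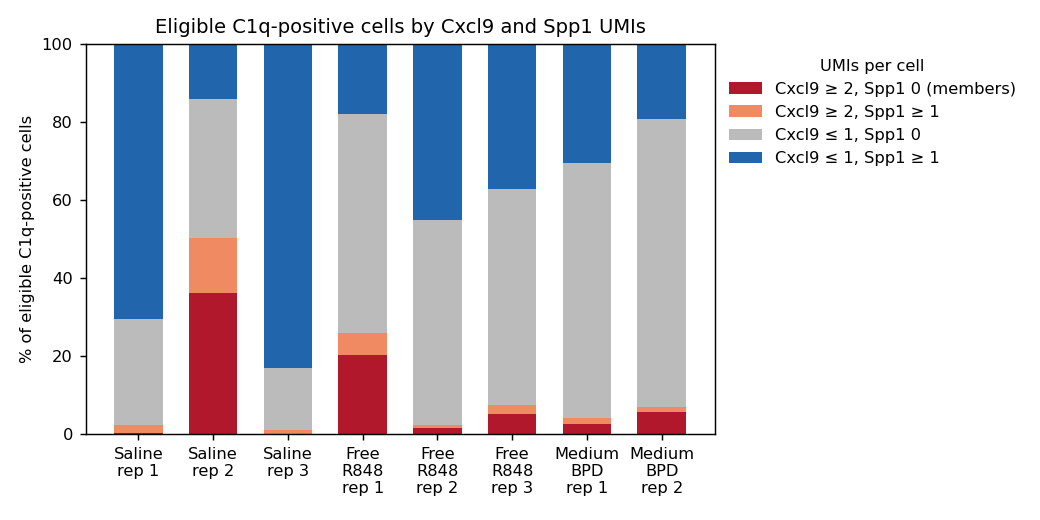
Eligible C1q-positive cells of each tumor, in percent, split by Cxcl9 (at least 2 or at most 1 UMI) and Spp1 (0 or at least 1 UMI). Cells with Spp1 and little Cxcl9 fill most of saline tumors 1 and 3, and members fill 36.2% of saline tumor 2.

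Free RNA was gauged in T cells, which should lack Cxcl9. Of the cells with T cell receptor transcripts, 33 to 114 in each tumor at median depths of 2736 to 5969 UMIs, none held 2 Cxcl9 UMIs in 7 tumors, saline tumor 2 included (0 of 35, leaving room for 8.57%). In medium BPD tumor 2, 2 of 33 such cells did (6.06%), close to the 6.78% of its eligible cells, and 9.09% of them also held at least 5 C1q UMIs, so that Cxcl9 in that tumor could not be told from background by this measure. Nor could it in free R848 tumor 2, saline tumor 1 and saline tumor 3, where 0 T cells leave room for 5.08%, 6.0% and 4.55%, above the shares of their eligible cells. MC38 cells, at median depths of 8299 to 15602 UMIs, held at least 2 Cxcl9 UMIs in 1.74 to 18.6% of cells, but carcinoma cells can make Cxcl9 themselves and are no clean background. In natural killer cells Cxcl9 stood at 31.6 CPM in saline tumor 2, over 70 cells, and at 0 to 6.58 CPM in the other tumors. The source of this Cxcl9 was not tested. Ifng, the gene for interferon-gamma, was detected in 45.7% of T cells of saline tumor 2, 32.9% of free R848 tumor 1 and 24.1% of free R848 tumor 3, and in 8.47 to 12.1% in the other 5 tumors. By level, T cells of free R848 tumor 3 held the most Ifng at 814 CPM, followed by saline tumor 2 at 235 CPM and free R848 tumor 1 at 168 CPM. Natural killer cells ran otherwise, with Ifng in 15.7% of those of saline tumor 2 and 19.7% of free R848 tumor 1 in a range of 9.38 to 28.6% over the tumors. In T and natural killer cells together it was found in 25.7% of cells of saline tumor 2, 26.7% of free R848 tumor 1 and 14.6 to 19.7% of the other 6 tumors. Its part in the share of members was not tested.

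Beyond the genes of the rule, members carried more transcript of 5 of 16 measured interferon-inducible GTPases and of Serpina3g, and less of Cxcl2 and Thbs1, than the other C1q-positive cells of the same tumors. UMIs were summed over the 281 members and over the 1521 other C1q-positive cells of the 5 tumors with at least 10 members, which left out free R848 tumor 2 and saline tumors 1 and 3. The sums were compared with edgeR's quasi-likelihood test with the tumor as a block, over 8208 genes, with Benjamini-Hochberg adjustment at 0.05. The rule's own genes took no part. Of these genes 16 were higher in members (0.195% of those tested) and 42 lower (0.512%). The difference had 1 direction in every tumor for 9 of the 16 and for 36 of the 42. The members were chosen on Cxcl9 in the same cells, so genes that vary with Cxcl9 from cell to cell were favored by the choice.

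The guanylate-binding proteins and immunity-related GTPases attack the vacuoles of intracellular pathogens. All 16 measured genes of this list had a positive log2 difference, with a median of 0.38 against -0.03 over all genes tested, and Gbp2b, Gbp2, Gbp4, Gbp5 and Iigp1 passed the test. Gbp2b showed the largest difference at 1.96 ± 0.23 log2 units (SE, edgeR adjusted p = 1.27e-05). In saline tumor 2 it stood at 196 CPM in members and 53.7 CPM in other C1q-positive cells, in free R848 tumor 1 at 104 against 19.9 CPM and in free R848 tumor 3 at 11.6 CPM, a single UMI, against 6.82 CPM. Medium BPD members held no Gbp2b UMI, against 0.617 and 1.78 CPM in the other cells of those tumors. Its higher level was therefore seen in saline tumor 2 and free R848 tumor 1, while the single UMI of free R848 tumor 3 cannot show a difference. After thinning to 2000 UMIs a Gbp2b UMI was left in 25.1% of members and 6.52% of other C1q-positive cells of saline tumor 2 and in 12.7% and 4.31% of those of free R848 tumor 1. In the other 3 tumors it was left in no member and in 0.240 to 0.847% of other C1q-positive cells. Gbp2 stood at 1075, 775, 328, 1003 and 894 CPM in members of free R848 tumors 1 and 3, medium BPD tumors 1 and 2 and saline tumor 2, against 718, 262, 321, 605 and 476 CPM (0.74 ± 0.14, SE, edgeR adjusted p = 0.0065). It was higher in members of all 5 tumors, by little in medium BPD tumor 1. Gbp4 rose by 0.75 ± 0.16 (SE, edgeR adjusted p = 0.012) and was higher in each tumor, while Gbp5, at 0.85 ± 0.17 (SE, edgeR adjusted p = 0.0070), was higher in 4 of 5. Genes of this family are close copies of one another, so reads may have been split between them.

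A serpin, a nuclease and a fibrinogen-like protein were higher in members of every tumor. Serpina3g, an intracellular inhibitor of cathepsins, stood at 208, 92.6, 67.9, 162 and 161 CPM in members, in the order of tumors just given, against 86.5, 34.1, 52.7, 86.0 and 63.6 CPM (1.15 ± 0.16, SE, edgeR adjusted p = 0.00011). Serpina3f, a close relative, differed by 1.63 log2 units. Dnase1l3, a secreted nuclease that clears chromatin from dying cells, stood at 64.9, 69.4, 56.6, 15.4 and 180 CPM against 37.8, 21.2, 11.7, 11.3 and 35.8 CPM (1.70 ± 0.25, SE, edgeR adjusted p = 0.00015). In the medium BPD tumors its UMIs in members came from 1 cell each. Fgl2, a membrane prothrombinase that is also secreted as an inhibitor of T cells, stood at 1643, 1666, 622, 1396 and 1213 CPM against 927, 603, 516, 745 and 833 CPM (0.76 ± 0.13, SE, edgeR adjusted p = 0.0015). Itgal, the alpha chain of LFA-1, Gatm, an enzyme of creatine synthesis, the tetraspanin Cd81 and the lysosomal enzyme Ppt1 were also higher in every tumor, by 0.84, 0.75, 0.74 and 0.74 log2 units. In free R848 tumor 3, 44 of the 60 Gatm UMIs in members came from 1 cell, and Gatm was found in 46.2% of members and 46.7% of other C1q-positive cells. Slc13a3, which carries dicarboxylates such as itaconate, rose by 1.46 but was at 0 in members of free R848 tumor 3.

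Promoters of Cxcl9 and of 3 genes higher in members are shown because interferon-induced genes often carry interferon-responsive sites near their start. Each runs from 250 bases before to 50 after the start of the gene as given by RefSeq on GRCm38.p6. Capitals mark matches, on either strand, to TTCNNNGAA, the pattern of a gamma-activated site, or to the core of the interferon-stimulated response element, which is GAAA, any 2 bases and GAAA. Cxcl9 lies on the minus strand (chr5:92328030-92328329), Gbp2b on the plus strand (chr3:142594597-142594896), Serpina3g on the plus strand (chr12:104235897-104236196) and Fgl2 on the plus strand (chr5:21372423-21372722).
Cxcl9: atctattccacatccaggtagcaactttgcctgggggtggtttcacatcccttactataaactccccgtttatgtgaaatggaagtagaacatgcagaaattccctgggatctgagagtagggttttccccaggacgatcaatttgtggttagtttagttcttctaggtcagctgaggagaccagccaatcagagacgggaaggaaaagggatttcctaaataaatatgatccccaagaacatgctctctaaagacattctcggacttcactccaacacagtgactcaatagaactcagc
Gbp2b: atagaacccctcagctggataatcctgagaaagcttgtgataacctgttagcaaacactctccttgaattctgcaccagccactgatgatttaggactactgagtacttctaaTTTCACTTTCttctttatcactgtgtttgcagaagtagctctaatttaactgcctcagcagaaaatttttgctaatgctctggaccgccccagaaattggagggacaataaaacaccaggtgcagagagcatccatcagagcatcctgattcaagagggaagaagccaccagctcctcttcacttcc
Serpina3g: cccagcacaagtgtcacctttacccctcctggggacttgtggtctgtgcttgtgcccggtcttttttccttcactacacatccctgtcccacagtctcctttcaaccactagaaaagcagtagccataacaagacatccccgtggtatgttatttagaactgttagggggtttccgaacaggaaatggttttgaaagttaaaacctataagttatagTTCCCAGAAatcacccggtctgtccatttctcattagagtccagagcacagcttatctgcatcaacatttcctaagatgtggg
Fgl2: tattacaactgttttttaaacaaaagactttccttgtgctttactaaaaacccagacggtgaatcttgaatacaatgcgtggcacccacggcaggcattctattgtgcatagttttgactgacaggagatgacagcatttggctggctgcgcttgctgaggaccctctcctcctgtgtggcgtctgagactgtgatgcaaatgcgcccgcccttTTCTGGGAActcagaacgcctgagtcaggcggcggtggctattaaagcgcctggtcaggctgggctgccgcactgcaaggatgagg
The match in Gbp2b is to the response element on the opposite strand at -137 to -128 from the start. Those in Serpina3g (-33 to -25) and Fgl2 (-36 to -28) are to TTCNNNGAA, and the Cxcl9 window held neither pattern. Over 32851 RefSeq promoters of this length 8.30% held TTCNNNGAA and 3.44% held the response element core. Of the 17 listed GTPases 11 had a promoter in the table, of which 10 held the core and 6 TTCNNNGAA. A match is a run of letters and not a measured binding site.

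The rest of the interferon-gamma program did not pass the test in members as a whole. Of 12 measured response genes that are not GTPases none was called, with a median log2 difference of 0.18, and 10 of 12 were positive. Irf1, a transcription factor that interferon-gamma induces, differed by 0.08 ± 0.15 (SE, edgeR adjusted p = 1.0) and Cxcl10 by 0.17 ± 0.24 (adjusted p = 0.99). Cxcl10 was higher in members of both free R848 tumors and of saline tumor 2 and lower in members of both medium BPD tumors. None of 5 genes of the interferon-gamma receptor and its kinases, 26 type I interferon-stimulated genes, 14 MHC class I genes, 9 genes of lymphocyte recruitment, 9 costimulation and checkpoint ligands or 12 genes of endosomal TLR signaling was called. Cd274, which encodes PD-L1, differed by 0.43 ± 0.14 (SE, edgeR adjusted p = 0.28). Some response genes passed under other settings. Over 17 alternatives Cxcl10 did so in 2, with a range of -0.70 to 1.63. Cd274 passed in 1 of 17, with a range of 0.17 to 0.90, and Ccl5 in 1 of 17, with a range of -0.31 to 0.95. The 6 MHC class II genes had a median of -0.04, and none was called. For H2-Ab1, members stood at 3760, 1944, 147, 262 and 9629 CPM against 2483, 2049, 523, 902 and 6948 CPM, higher in free R848 tumor 1 and saline tumor 2 and lower in the other 3. With the rule raised to at least 4 Cxcl9 UMIs, only saline tumor 2 and free R848 tumor 1 held 10 cells or more. In these 2 tumors H2-Ab1 was already higher under the original rule. Over them H2-Ab1 rose by 0.60 (edgeR adjusted p = 0.00010), H2-Eb1 by 0.65 (1.78e-05), H2-Aa by 0.55 (0.0011) and Cd74 by 0.45 (0.022). The 3 tumors where H2-Ab1 was lower took no part. With 2 tumors these p-values rest in large part on a spread shared over genes.

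Cxcl2 and Thbs1 were lower in members of all 5 tumors. Cxcl2, a chemokine that binds CXCR2, stood at 171, 231, 532, 717 and 218 CPM in members of free R848 tumors 1 and 3, medium BPD tumors 1 and 2 and saline tumor 2, against 788, 1259, 766, 1347 and 496 CPM (-1.44 ± 0.18, SE, edgeR adjusted p = 1.96e-05). Thbs1, which encodes the matrix protein thrombospondin-1, stood at 746, 1088, 430, 1157 and 586 CPM against 1761, 2391, 2162, 2755 and 798 CPM (-1.25 ± 0.16, SE, edgeR adjusted p = 1.96e-05). Of 20 inflammatory genes 4 fell and none rose, the others being Cxcl1, Il1b (-0.98) and Ptgs2 (-0.62), which makes prostaglandins. Of 19 genes of the Spp1 and lipid-associated list 4 fell, with a list median of -0.46, among them Thbs1, the tetraspanin Cd9 (-1.16) and the growth factor Vegfa (-0.72). Bnip3 was the 1 of 19 hypoxia and glycolysis genes to fall, and none of 9 resident and scavenger genes was called. The monocyte genes Ly6c2 (-0.91) and F13a1 (-1.42) fell as well.

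Granzymes, the proteases of killer cells, were among the largest falls, and these rested on few cells. Gzmc differed by -3.84 ± 0.28, Gzma by -3.52 ± 0.38 and Gzmb by -2.93 ± 0.36 (SE, each past the edgeR threshold). Of the 1521 other C1q-positive cells, 24 held at least 10 granzyme UMIs and together 89.7% of the 2785 granzyme UMIs. Among the 281 members 1 cell did, and members held 47 granzyme UMIs in all. Klrb1c, a natural killer cell receptor, had 46 UMIs in the other C1q-positive cells and 0 in members. Klrk1 ran the other way, being found in 33.2% of members and 13.5% of other C1q-positive cells over the series. A UMI of any natural killer cell marker apart from Gzma was found in 100 of the 281 members and 281 of the 1521 other C1q-positive cells. Tnfrsf9, the costimulatory receptor 4-1BB, differed by -3.08 ± 0.49 (SE, edgeR adjusted p = 0.00053). Its UMIs were spread over 52 of 416 other C1q-positive cells in medium BPD tumor 1 and 28 of 320 in medium BPD tumor 2, while no tumor had more than 1 member with any. The neutrophil gene S100a8 (-2.90) and Mmp8 (-2.31), also chiefly a neutrophil gene, fell too, at no more than 30.9 and 69.4 CPM in members. The part of other cell types in these falls was not tested.

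Many of these calls needed all 5 tumors. Serpina3g, Ppt1, Cxcl2 and Thbs1 stayed past the edgeR threshold when any 1 tumor was left out. Gbp2b did so without free R848 tumor 3 or either medium BPD tumor, and fell under the filter on low counts without saline tumor 2 or free R848 tumor 1, so that it was not tested there. DESeq2 gave no adjusted p for Gbp2b and did not call Gbp5 (adjusted p = 0.071) or Iigp1 (adjusted p = 0.26), and with cells thinned to 2000 UMIs Gbp2b (edgeR adjusted p = 0.16) and Gbp5 (0.074) were not called. Gbp2, Gbp4, Gbp5 and Iigp1 lost the call without saline tumor 2 and also without free R848 tumor 1. Gbp2 lost it without free R848 tumor 3 as well, and Gbp4 and Iigp1 without medium BPD tumor 2. The call was lost for Fgl2 and Gatm without free R848 tumor 1, for Dnase1l3 without saline tumor 2, for Itgal without saline tumor 2 or medium BPD tumor 2, and for Cd81 and Il1b without either free R848 tumor, and all kept their direction. Calls for Vegfa, Ptgs2, Bnip3, Cd9 and Cxcl1 were lost under most omissions.

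**Figure D3:**
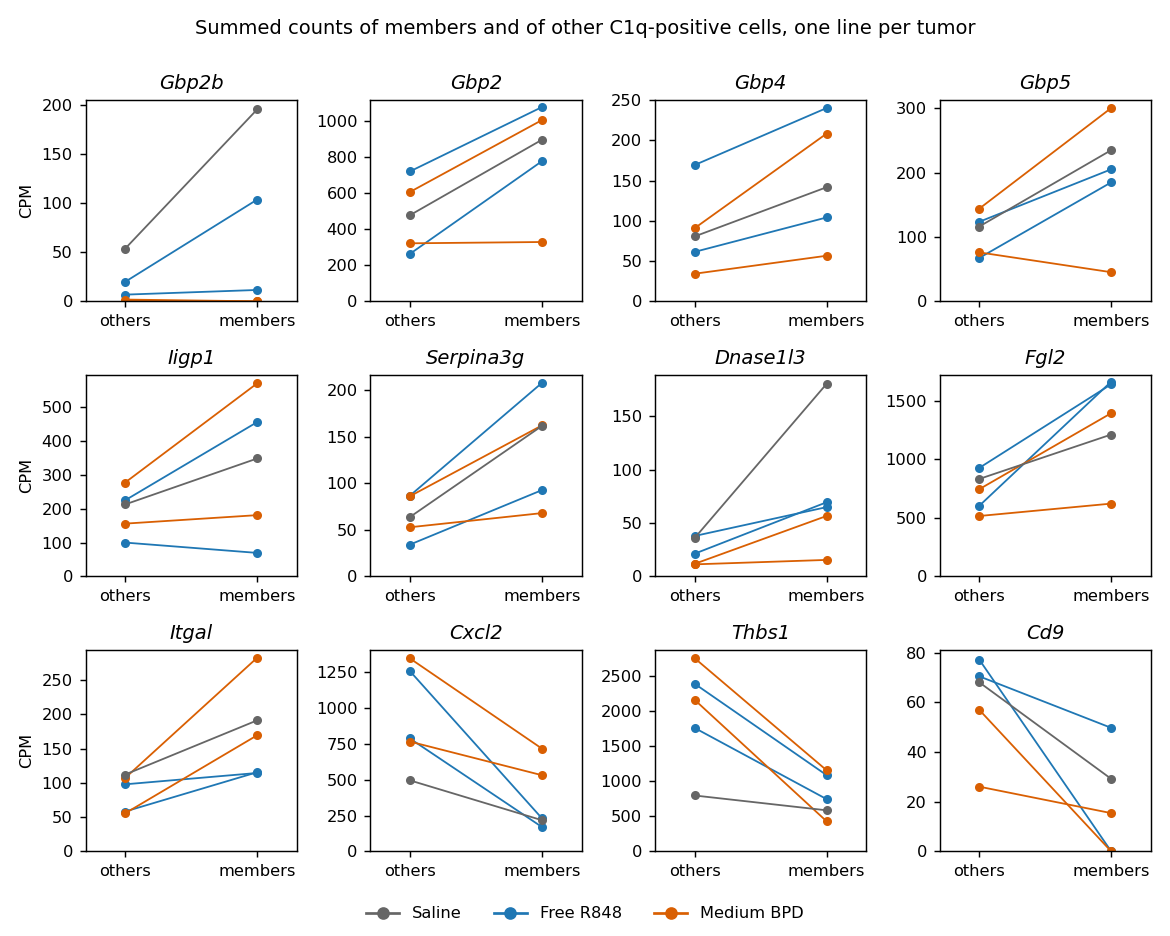
Levels in CPM of 12 genes in the summed members and in the summed other C1q-positive cells, with 1 line per tumor colored by treatment. Lines of Serpina3g, Dnase1l3 and Fgl2 climb toward members in all 5 tumors, those of Cxcl2 and Thbs1 descend, and Gbp2b climbs in 3. In free R848 tumor 3 the climb of Gbp2b is a single UMI.

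More genes were called when members were set against cells at the opposite end of the axis. Against cells with at least 2 Spp1 UMIs and no Cxcl9 (799 cells in the series) in the same 5 tumors, 60 genes were higher in members (1.47% of 4087 tested) and 119 lower (2.91%). Serpina3g rose by 2.33 ± 0.28, Gbp5 by 1.52 ± 0.26, Gbp2 by 1.21 ± 0.18, Iigp1 by 1.18 ± 0.18 and Cd81 by 1.42 ± 0.22 (SE, edgeR, all adjusted p under the 0.05 threshold), and Cd74 (0.99) and H2-Aa (0.90) were now higher. Of 18 genes of the Spp1 and lipid-associated list, Spp1 itself left out, 12 fell, among them Cd9 (-2.39), Gpnmb (-2.09), Fabp5 (-1.51), Trem2 (-0.86) and Lgals3 (-0.95). Of 16 hypoxia and glycolysis genes 8 fell and none rose, among them Egln3 (-1.78), Hilpda (-1.66), the glucose carrier Slc2a1 (-1.27) and Ldha (-0.63). Since these cells were chosen for Spp1, genes that vary with Spp1 were favored in this comparison.

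Against the nearest cells the differences were fewer. Against cells that also lacked Spp1 but held at most 1 Cxcl9 UMI, 9 genes were higher in members (0.122% of 7386 tested) and 8 lower (0.108%), all 17 of them among the 58. They included Dnase1l3 (1.69 ± 0.25), Serpina3g (1.27 ± 0.20), Slamf8 (1.02 ± 0.18), Gbp5 (0.91 ± 0.19), Fgl2 (0.77 ± 0.14), Cxcl2 (-1.19 ± 0.20) and Thbs1 (-1.13 ± 0.18), each with its SE and past the edgeR threshold. Against cells with both Cxcl9 and Spp1, which numbered at least 10 only in saline tumor 2 and free R848 tumor 1, 1 gene was higher (0.0159% of 6276 tested) and 2 were lower (0.0319%). Gzmf, a granzyme, was lower (-3.61 ± 0.68, SE, edgeR adjusted p = 0.030), and Mmp12, a macrophage elastase, was higher (3.63 ± 0.51, adjusted p = 0.00041). Of the 138 Mmp12 UMIs in members of saline tumor 2, 84 came from 1 cell. Both genes were named after their values were seen.

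Within saline tumor 2, levels of Gbp2 and Cxcl10 were higher in cells with more Cxcl9, while in free R848 tumor 1 most genes showed no steady order. In Spp1-negative eligible cells of saline tumor 2, grouped by 0, 1, 2, 3 to 5, 6 to 10 and over 10 Cxcl9 UMIs, Gbp2 stood at 377, 435, 583, 808, 772 and 1094 CPM. Gbp2b in the same groups stood at 50.8, 70.5, 167, 135, 168 and 253 CPM, and Cxcl10 at 396, 394, 604, 769, 928 and 1124 CPM. H2-Aa ran from 2232 to 3148 CPM between the lowest and the highest group, and Irf1, at 372, 315, 278, 581, 511 and 442 CPM, had no steady order. Median depths of these groups lay between 5032 and 6084 UMIs. In free R848 tumor 1, Gbp2 ran from 826 CPM with no Cxcl9 UMI through 567 CPM with 1 to 1456 CPM with over 10, and Cxcl10 from 634 to 2187 CPM with no steady order between. Gbp2b in that tumor stood at 14.3, 22.9, 53.2, 12.9, 229 and 94.5 CPM and H2-Aa at 994, 1105, 1091, 2606, 731 and 1412 CPM. These groups hold 11 to 139 cells of 1 tumor each and are given as a description.

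**Figure D4:**
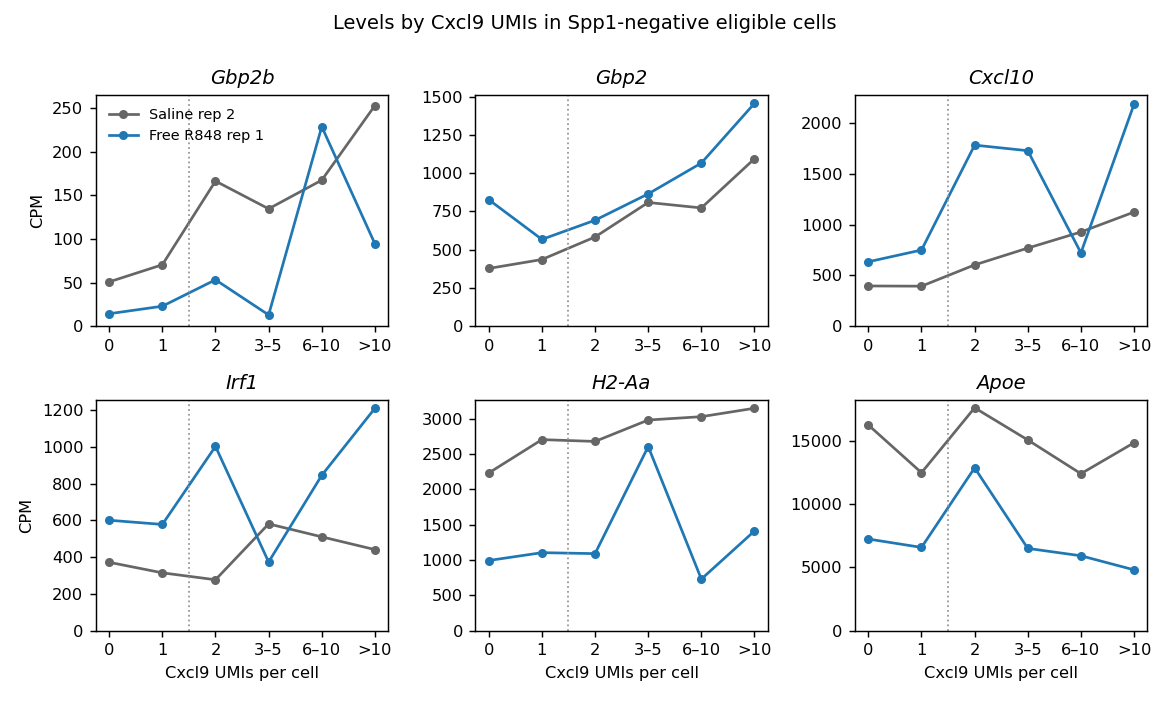
Levels in CPM of 6 genes in Spp1-negative eligible cells of saline tumor 2 and free R848 tumor 1, grouped on the horizontal axis by Cxcl9 UMIs per cell; the dotted line marks the rule's limit of 2. In saline tumor 2 Gbp2 climbs from 377 to 1094 CPM and Cxcl10 from 396 to 1124 CPM, and Irf1 shows no steady climb in either tumor.

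The members of medium BPD tumors held less transcript of 4 MHC class II genes and more of the acute-phase gene Saa3 than those of free R848 tumors. The fit held members of 5 tumors: free R848 tumors 1 and 3 (55 and 13 cells), medium BPD tumors 1 and 2 (11 and 19 cells) and saline tumor 2 (183 cells), the only saline tumor with enough members. Of the medium BPD members 19 came from medium BPD tumor 2, where Cxcl9 could not be told from background, so that these cells are members by the rule only. By edgeR's quasi-likelihood test 73 of 3724 genes were called between the medium BPD and free R848 (1.96%), 48 higher and 25 lower after the medium BPD. With so few tumors this count was unstable: it was 0 without free R848 tumor 3 (178 genes at an unadjusted p under 0.05), 8 without saline tumor 2 and 275 without medium BPD tumor 1. Leaving out a treated tumor leaves 1 tumor in its group, so that the spread between tumors then comes from the other treated group alone. H2-Eb1, H2-Ab1, H2-Aa, Cd74, Saa3, Cd38 and F13a1 held the call in each of 11 alternatives apart from the one without free R848 tumor 3, and Cxcl10 lost it also without saline tumor 2.

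Of 6 measured genes of the MHC class II family, which as a family serves to present peptides to helper T cells, 4 fell. Transcripts of H2-Eb1, a gene for a class II beta chain, stood at 1998 and 845 CPM in members after free R848, 11.3 and 61.7 CPM after the medium BPD and 4361 CPM in saline tumor 2 (-5.04 ± 0.56, SE, edgeR adjusted p = 1.86e-05). H2-Ab1 stood at 3760 and 1944 CPM after free R848, 147 and 262 CPM after the medium BPD and 9629 CPM in saline tumor 2 (-3.66 ± 0.40, SE, edgeR adjusted p = 1.86e-05). H2-Aa fell by 3.93 and Cd74, the invariant chain, by 3.32 on the log2 scale. For each of these 4 genes both medium BPD tumors lay below both free R848 tumors. The list median was -3.49 against 0.01 over all genes. The other C1q-positive cells ran the same way, with H2-Ab1 at 2483 and 2049 CPM after free R848 and 523 and 902 CPM after the medium BPD.

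Among interferon-induced genes in members, Cxcl10 fell. Cxcl10 stood at 1652 and 764 CPM after free R848, 90.5 and 224 CPM after the medium BPD and 932 CPM in saline tumor 2 (-2.79 ± 0.47, SE, edgeR adjusted p = 0.0029). In free R848 tumor 3, 44 of its 66 UMIs came from 1 of 13 members. Cxcl9 itself, which the rule fixed to be present, stood at 1114, 775, 758, 694 and 1826 CPM in the order free R848 tumors 1 and 3, medium BPD tumors 1 and 2 and saline tumor 2. Gbp2b had 48 UMIs in members of free R848 tumor 1, 1 in those of free R848 tumor 3 and 0 after the medium BPD, and its call was lost without either free R848 tumor, without medium BPD tumor 2 and with 11 cells per tumor. Of the other 13 measured GTPases none was called, nor was any of 25 type I interferon-stimulated genes, 14 MHC class I genes or 9 endosomal TLR genes. Tlr7, the receptor of R848 in mice, stood at 82.2 and 139 CPM after free R848, 113 and 92.6 CPM after the medium BPD and 93.6 CPM in saline tumor 2, with overlapping groups. Cd40, a receptor for T cell help (-1.92), and the cytokine gene Il1b (-1.84) also fell, but Cd40 lost the call in 7 of 11 alternatives and Il1b in 5, with Il1b between -3.20 and -0.77.

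Saa3, Lcn2, Cd38 and F13a1 rose. Saa3, an acute-phase protein made by activated macrophages, stood at 47.6 and 23.1 CPM in members after free R848, at 7707 and 19800 CPM after the medium BPD and at 0 in saline tumor 2 (8.50 ± 0.52, SE, edgeR adjusted p = 2.55e-09). The other C1q-positive cells ran alike, at 124 and 154 CPM after free R848 and 10602 and 16589 CPM after the medium BPD. Lcn2, which binds bacterial siderophores, had 2 UMIs (4.32 CPM) in free R848 tumor 1 and 0 in free R848 tumor 3, against 192 CPM (17 UMIs) in medium BPD tumor 1 and 1118 CPM (145 UMIs) in medium BPD tumor 2. Cd38, an ectoenzyme that consumes NAD, stood at 34.6 and 34.7 CPM after free R848, 306 and 463 CPM after the medium BPD and 30.1 CPM in saline tumor 2 (3.59 ± 0.46, SE, edgeR adjusted p = 9.14e-05). F13a1, a coagulation factor made by monocytes and macrophages, stood at 8.65 and 11.6 CPM after free R848 and 260 and 756 CPM after the medium BPD (5.89 ± 0.65, SE, edgeR adjusted p = 1.86e-05). Bst1, a relative of Cd38, rose by 3.73, the metalloproteinase Mmp19 by 3.85 and the nitric oxide synthase Nos2 by 2.68, although Nos2 overlapped between the groups. Each of these 3 lost the call without medium BPD tumor 2, as did Lcn2. Over their alternatives Bst1 ranged down to 1.79, Mmp19, at 67.9 CPM in medium BPD tumor 1 and 617 CPM in medium BPD tumor 2, from 1.38 to 4.68, and Nos2 down to 0.05. Mmp19 also lost the call with 11 cells per tumor and without free R848 tumor 3, and Nos2 lost it in 7 of 11 alternatives. Of 19 inflammatory genes 7 rose and Il1b fell, and of 18 Spp1 and lipid-associated genes 3 rose, among them Emp1 and the heme oxygenase Hmox1 (2.43).

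Several of the rises came from part of 1 tumor's members. Fcna, a ficolin, had 53 UMIs in members of medium BPD tumor 2 and 2 in tumor 1, the scavenger receptor Marco 42 and 2, the lectin Clec10a 66 and 0, and Cd5l, an apoptosis inhibitor of resident macrophages, 78 and 0. After free R848 members held no UMI of Fcna, Marco or Cd5l. With UMIs summed over the tumors of each treatment, the medium BPD level was at least 46.2-fold, 36.9-fold and 65.5-fold higher. These sums rest on medium BPD tumor 2, and the bound for Cd5l does not hold in medium BPD tumor 1, where it had no UMI. Of the 19 members in medium BPD tumor 2, 7 carried at least 3 of these 4 genes and 8 carried none. Of 11 tested genes of the resident and scavenger list 3 rose, 1 fell and 7 were not called. Folr2, Mrc1 and Pf4 rose by 2.22, 2.61 and 3.44 and were higher in both medium BPD tumors than in both free R848 tumors, and Axl, a receptor for the clearance of dying cells, fell by 1.78 on the log2 scale. All 4 lost the call without medium BPD tumor 2.

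**Figure D5:**
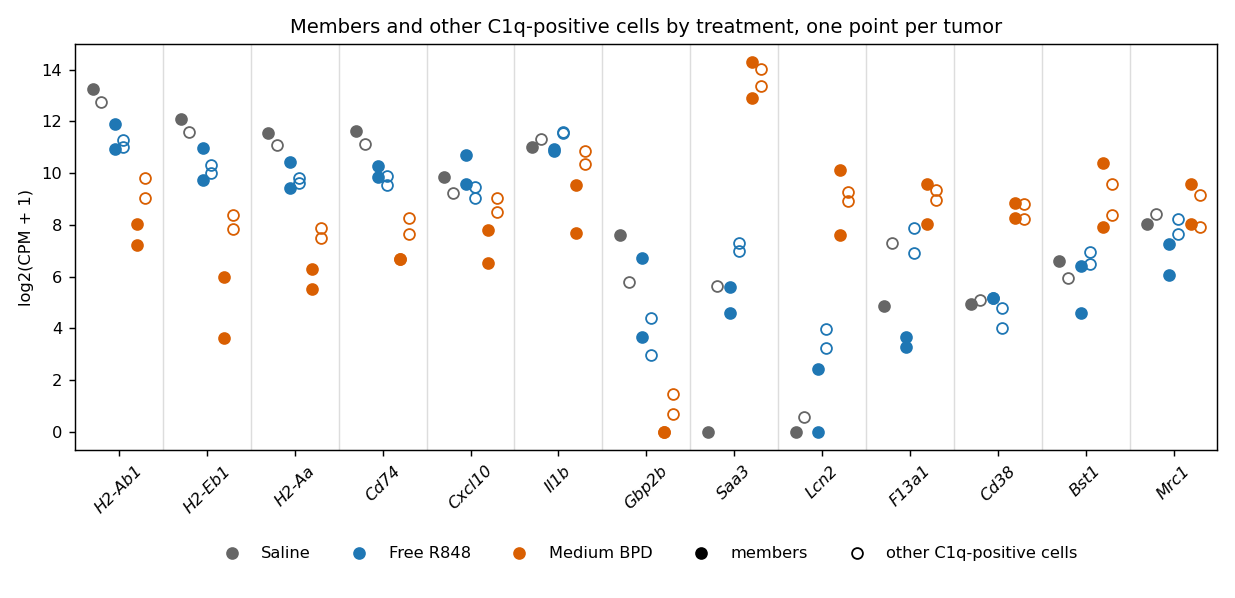
Levels of 13 genes as log2(CPM + 1) in summed members (filled) and summed other C1q-positive cells (open), with 1 point per tumor colored by treatment. The 4 MHC class II genes sit lowest and Saa3, Lcn2, F13a1 and Cd38 highest in both medium BPD tumors.

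Comparisons with saline rested on saline tumor 2 alone, which had enough members because its Cxcl9 was high and which stood apart from the other saline tumors. They set treated members against that tumor and not against saline as a group, so they bear on no effect of treatment. With the spread taken from the treated tumors the fit passed 1 of 3724 genes for free R848 (0.0269%) and 73 for the medium BPD (1.96%), and nothing is read from these counts. Saa3 had 24 UMIs in free R848 members, summed over their tumors, and 0 in saline tumor 2, at least 17.0-fold higher. In medium BPD members the 6 class II genes had a median log2 difference of -5.22 from saline tumor 2, with H2-Eb1 at -6.73 and H2-Aa at -5.55. With UMIs summed over both medium BPD tumors, Saa3 was at least 5784-fold, Lcn2 at least 288-fold, Fcna at least 97.9-fold and Marco at least 78.4-fold higher. Gbp2b was at least 14.2-fold lower. The sums of Fcna and Marco rest on medium BPD tumor 2. This comparison shares its medium BPD tumors with the one against free R848.

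Whether the medium BPD and free R848 differed by more in members than in other C1q-positive cells was tested in 1 model over both kinds of sum. The difference was called for 23 of 9898 genes (0.232%), 17 of which were also among the 73. The class II genes fell further in members, with extra log2 changes of -3.07 ± 0.44 for H2-Eb1, -2.05 ± 0.31 for H2-Ab1, -1.97 ± 0.42 for H2-Aa and -1.67 ± 0.38 for Cd74 (SE, edgeR adjusted p = 3.62e-08, 1.76e-07, 0.0024 and 0.0059). All 5 tested dendritic cell markers were lower too, with a median of -3.55 against -0.08 over all genes, though none was called. Their part in the class II changes was not tested. Cxcl10 also fell further (-2.41 ± 0.36, SE, edgeR adjusted p = 1.26e-07). Saa3 rose further in members, by 1.53 ± 0.35 (SE, edgeR adjusted p = 0.0053), as did Cxcl2, Mrc1 and Pf4. DESeq2 called none of the 9898 genes in this comparison, with 103 genes at an unadjusted p under 0.05.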

How the data were processed

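Single-cell libraries of 8 MC38 tumors were analysed, 3 after saline, 3 after free R848 and 2 after the medium BPD, grouped by sample title. The deposited tables hold raw UMI counts per gene and cell, made by the authors. Per the submitters' processing notes bcl2fastq and mm10 were used, and the aligner and annotation were not given in the sources used here. The tables hold 10791 barcodes and 5867590 to 12422614 UMIs per tumor. In all, 23 barcode sequences occurred in more than 1 library, none of them a member's. Scrublet (scanpy 1.11.5) marked 100 cells as doublets, 49 of them in free R848 tumor 1 and 1 a member, and they were kept in the main results.

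Cells were kept when they had over 400 genes but under 10000, under 50000 UMIs in all, and a mitochondrial share of UMIs no higher than 15%. The members, the gene lists and the tests were chosen with earlier results of these data known. Sums per tumor with at least 10 cells were fitted with edgeR 4.0.16 (TMM, filterByExpr, quasi-likelihood) in R 4.3.3. DESeq2 1.42.0, RLE scaling, other filters, thinning, other cell limits and omission of each tumor were the alternatives, and a comparison without both tumors rich in members, shares with any Spp1 count and shares paired by replicate number were added after the data were seen. Only separate tumors are replicates, and the permutation p-values rest on the spread between them. The edgeR tests combine that spread with a spread shared over genes. With so few tumors per treatment they rest in large part on the shared spread. Genes named were those past the threshold with a mean of at least 5 log2 CPM and the same direction in every tumor (members against others, 12 each way) or with groups that do not overlap (treatments, 8 each way), the 5 largest of the difference between comparisons, the marker Gbp2b, and called genes of the lists. Others, such as Serpina3f and Slc13a3, were named after their values were seen. On simulated counts the fit of members against others recovered 63% of genes changed 2-fold and 92% of those changed 4-fold with 7 false calls among 8278 genes, and the fit of medium BPD against free R848 2% and 60% with 3 false calls among 3686. Older gene symbols were matched through RefSeq synonyms, and Cxcl11 was not matched. Values of some single genes are not reported here. Gene positions are those of GRCm38.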

Additional observations from a re-analysis of the deposited data

Results flagged for a closer look

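Of the 23 genes whose medium BPD against free R848 change differed between members and other C1q-positive cells by a test of the difference itself, 5 are given here, the largest with a mean of at least 5 log2 CPM. The extra log2 change in members was 3.65 for F13a1, at 8.65 and 11.6 CPM in members after free R848 and 260 and 756 CPM after the medium BPD, against 118 and 236 CPM and 494 and 650 CPM in the other C1q-positive cells. It was -3.07 for H2-Eb1, whose other C1q-positive cells stood at 1263 and 1033 CPM after free R848 and 231 and 332 CPM after the medium BPD. It was 2.92 for Mmp19, at 21.6 and 46.3 CPM in members after free R848 and 67.9 and 617 CPM after the medium BPD. It was 3.21 for Cxcl1, where all 19 UMIs of medium BPD tumor 1 came from 1 member. It was -10.63 for Mmp12, which had no UMI in medium BPD members and stood at 599 and 278 CPM in the other C1q-positive cells of those tumors, so that the size depends on the prior count of the fit and is no bound. All 5 lost the call by DESeq2 and with 11 cells per tumor. Mmp19 lost it also without free R848 tumor 1 or medium BPD tumor 2 and ranged down to 1.43, Cxcl1 without free R848 tumor 3 or medium BPD tumor 1, and Mmp12 without free R848 tumor 1.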

How the results depend on the processing

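For genes in members no paired analysis was possible because the tumors with at least 10 members share fewer than 2 replicate numbers between treatments and leave no residual degrees of freedom under such a block. For the share, pairing tumors by replicate number, a block added after the data were seen, gave -5.27 points for the medium BPD against free R848 (2 pairs), -3.46 for free R848 against saline (3 pairs) and -12.2 for the medium BPD against saline (2 pairs), each with a two-sided exact sign-flip permutation p = 1.0, where 2 pairs cannot go below 0.5 and 3 pairs cannot go below 0.25, so that this says nothing about stability. The labels give no shared animal or day to a number. The count of 58 genes between members and other C1q-positive cells was 24 by DESeq2, 136 without a filter on low counts, 100 with at least 4 Cxcl9 UMIs (over saline tumor 2 and free R848 tumor 1), 18 with cells thinned to 2000 UMIs (over the same 2 tumors), and 1, Iigp1, with 11 cells per tumor. It was 17 against Spp1-negative Cxcl9-low cells, 179 against Spp1-positive Cxcl9-negative cells and 3 against cells with both. Without the tumor block edgeR called 0 (350 genes at an unadjusted p under 0.05). Leaving out 1 tumor gave 18 to 54, with 18 without free R848 tumor 1 and 34 without free R848 tumor 3. Without both tumors that hold most members it was 17, of which 11 were among the 58. Thinned cells, over saline tumor 2 and free R848 tumor 1 only, put H2-Ab1 at 0.62 and Vegfa at 0.19. At least 4 Cxcl9 UMIs, over the same 2 tumors, or Spp1-positive cells as the comparison put class II genes higher, as given in the report (0.60, 0.65, 0.55, 0.45, 0.90 and 0.99).

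For members of the medium BPD against free R848 the count of 73 was 28 by DESeq2, 130 without a filter, 19 with 11 cells per tumor and 8 with only the 2 groups in the fit, and leaving out 1 tumor gave 0 to 275. Against saline tumor 2, a single tumor whose fit takes its spread from the treated tumors and is not read as a test of treatment, the count of 73 (1.96% of 3724 genes) was 27, 145 and 10 under the first 3 of these, and 0 to 339 leaving out 1 tumor, with 0 without free R848 tumor 3 (252 genes at an unadjusted p under 0.05) and 339 without medium BPD tumor 1. For free R848 against saline tumor 2 the single call (0.0269%) became 0 by DESeq2 (12 genes at an unadjusted p under 0.05), 6 without a filter, 0 with 11 cells per tumor (83), 21 with only the 2 groups and 0 to 24 leaving out 1 tumor. The 23 genes that differed between the changes became 0 by DESeq2, 0 with 11 cells per tumor by edgeR (119 genes at an unadjusted p under 0.05), and 10 to 32 leaving out 1 tumor. The cause of these shifts was not tested.

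The difference in share ranged from -6.65 to -0.115 points for the medium BPD against free R848, from -8.16 to 5.89 for free R848 against saline and from -12.2 to 1.88 for the medium BPD against saline when 1 tumor was left out. The reversals were those without saline tumor 2. Treatment fits with at least 4 Cxcl9 UMIs, with thinned cells, and against saline without saline tumor 2 gave no value, since too few tumors held 10 members. With 11 to 19 members in each medium BPD tumor, 2-fold changes were rarely detectable at this depth.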
